A study of Mus musculus with 8 samples.

Results

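Zbed6, Zc3h11a and Zfhx4 are zinc finger genes that were read from a table of 10663 mouse genes, 3 of the 4 genes named by symbol. Zfhx3, the other named gene, was not analysed here. Zbed6 and Zfhx4 were picked because they stood among the most raised genes when the groups of this same study were compared, and Zc3h11a because Zbed6 lies inside it. The differences of the 3 genes between the groups are therefore described with their error and carry no test. RNA was sequenced from 3T3-L1 adipocytes, a mouse fibroblast line turned into fat cells in culture. The control group (Con) and the group labelled with overexpression of miR-690-5p (miR-690oe) each held 4 libraries, and each library held an estimated 29773446 to 38235522 reads over the listed genes. All 8 libraries carry the same cell line, the same low passage and the same medium in the labels. The labels also give every library, Con included, the same treatment with miR-690 mimic at 5 pM, and what the Con cells received in its place is not stated there. Nothing in the labels tells whether replicates were separate cultures, so every p-value reflects the spread between these libraries alone, which may be technical.

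ZBED6 is a DNA-binding protein of placental mammals that arose from a domesticated DNA transposon. It represses the growth factor gene IGF2 by binding a GCTCG element, as shown in pig and mouse muscle cells. Its gene is a continuous coding exon within an intron of ZC3H11A and can be expressed from the host's promoter. ZC3H11A is an RNA-binding protein with CCCH zinc fingers that is associated with the TREX complex, which carries mRNA out of the nucleus. ZFHX4 and its relative ZFHX3 are very large transcription factors with many zinc fingers and several homeodomains, best known from the development of the nervous system and muscle.

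In GENCODE M21, which uses the build mm10, Zc3h11a (chr1:133619862-133661380, minus strand) has 18 exons in its longest coding transcript. Zbed6 (chr1:133655879-133660885) lies on the same strand as 1 exon of 5007 nt. It fills 85.8% of the first intron of that transcript, which is 5838 nt long, and shares 0 bases with its exons. A read from an unspliced Zc3h11a transcript in this intron and a read from Zbed6 carry the same sequence, so the count of Zbed6 is uncertain to that extent. Zfhx4 (chr3:5218526-5415857, plus strand) spans 197332 bases, and its longest coding transcript has 11 exons and 13874 nt.

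**Figure D1:**
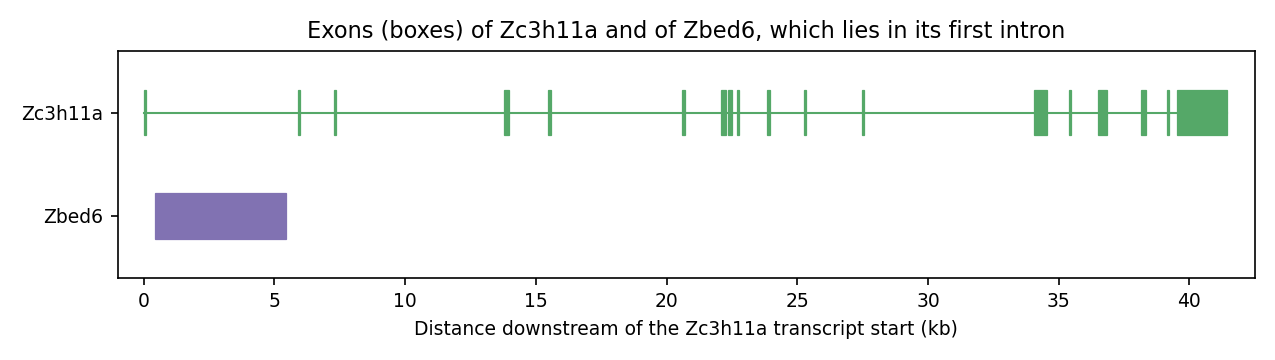
Exons of the longest coding transcript of Zc3h11a (upper row, boxes on a line) and the exon of Zbed6 (lower row), with distance from the Zc3h11a transcript start in kb on the x axis. The 5007 nt of Zbed6 lie between the first and the second exon of Zc3h11a.

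The microRNA is shown because its seed defines the sites searched for in the 3 genes. Its mature sequence from RefSeq (GRCm38.p6, chr16:28599940-28599961, minus strand) has the seed, bases 2 to 8, in capitals. RefSeq names it without an arm, while the labels say miR-690-5p.
mmu-miR-690: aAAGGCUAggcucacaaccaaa
A site that pairs with these 7 bases, TAGCCTT, was found in 11.9% of 10366 annotated 3' UTRs. Zc3h11a held 1 site in its 3' UTR of 1681 nt, at position 1262 (chr1:133620275-133620281). It is printed here in its context (chr1:133620264-133620292, minus strand, mm10) with the site in capitals.
Zc3h11a 3' UTR site: tgaagttcatgTAGCCTTgttgggaatat
Neither the 3' UTR of Zbed6, at 776 nt, nor that of Zfhx4, at 2708 nt, held the 7-base site or the 6-base site AGCCTT. Among 3' UTRs of similar length, the 7-base site was present in 14.0% for Zc3h11a, 5.0% for Zbed6 and 19.5% for Zfhx4, so most 3' UTRs of such lengths lack it. The 6-base site was present in 42.6% of all 3' UTRs, in 31.0% of those of similar length to that of Zbed6 and in 65.8% for Zfhx4.

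The promoter of Zc3h11a is shown because Zbed6 can be expressed from it. The RefSeq promoter tables (GRCm38.p6) held windows of 300 bases for Zc3h11a and Zbed6. The core of the ZBED6 element, GCTCG, was searched on both strands, and 29.8% of 32851 promoter windows held it. The Zc3h11a window (chr1:133661350-133661649) held it 1 time, on the strand opposite to the gene, starting at the last base before the RefSeq transcript start. The longer form GCTCGC, which contains the core, was there too, as in 14.1% of windows. The stretch from 100 bases before to 25 bases after the transcript start (chr1:133661375-133661499, minus strand) has the reverse complement of the core in capitals.
Zc3h11a promoter: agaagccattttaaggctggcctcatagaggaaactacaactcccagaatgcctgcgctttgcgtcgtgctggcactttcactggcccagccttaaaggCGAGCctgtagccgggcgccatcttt
The window at the annotated start of Zbed6 (chr1:133660836-133661135) held 0 copies of the core. It was richer in G and C, at 66.0% against 50.7%.

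Zbed6 was higher in miR-690oe adipocytes. Values are CPM as deposited, the reads of a gene per 1000000 reads of its library. It stood at 53.8, 44.85, 46.01 and 58.26 CPM in Con replicates 1 to 4, and at 92.79, 86.53, 103.32 and 69.11 CPM in miR-690oe replicates 1 to 4. The groups did not overlap, and miR-690oe replicate 4 was the closest to the Con libraries. The means were 50.7 ± 6.40 CPM and 87.9 ± 14.3 CPM (SD, n = 4 each). On the log2(CPM + 0.5) scale, the scale of every log2 fold change here, the difference was 0.78 ± 0.10 (SE), or 1.72-fold. By the same estimate, 1370 to 3555 reads lay behind each value. In bulk RNA such as this, more cells of a type and more RNA per cell cannot be told apart.

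Zfhx4 was also higher, with a log2 fold change close to that of Zbed6. Its values were 48.47, 45.86, 48.37 and 49.77 CPM in Con and 95.72, 78.54, 84.31 and 73.53 CPM in miR-690oe, replicates 1 to 4. The Con libraries lay close together, the miR-690oe libraries spread more widely, and the groups did not overlap. The means were 48.1 ± 1.63 and 83.0 ± 9.54 CPM (SD, n = 4 each), with a log2 fold change of 0.77 ± 0.07 (SE), or 1.71-fold.

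Zc3h11a, the host gene, differed less and was the most abundant of the 3. It stood at 197.51, 180.83, 181.4 and 182.55 CPM in Con and at 235.44, 238.72, 236.0 and 249.91 CPM in miR-690oe, replicates 1 to 4. The groups did not overlap, and Con replicate 1 lay above the other 3 Con libraries. The means were 185.6 ± 7.99 and 240.0 ± 6.75 CPM (SD, n = 4 each), with a log2 fold change of 0.37 ± 0.04 (SE), or 1.29-fold.

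Ordered by log2 fold change from the highest among 10658 genes tested, Zbed6 held place 5, Zfhx4 place 6 and Zc3h11a place 620. With a trend over transcript length and GC content removed, described further on, the places were 10, 116 and 433. The same 3 genes had 0.78, 0.77 and 0.35 in the authors' deposited table. None of the 3 genes had overlapping groups. Over all genes the groups did not overlap for 38.3%, and for 22.4% with miR-690oe higher. The 3 genes were chosen on this contrast, so nothing is read from that count.

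**Figure D2:**
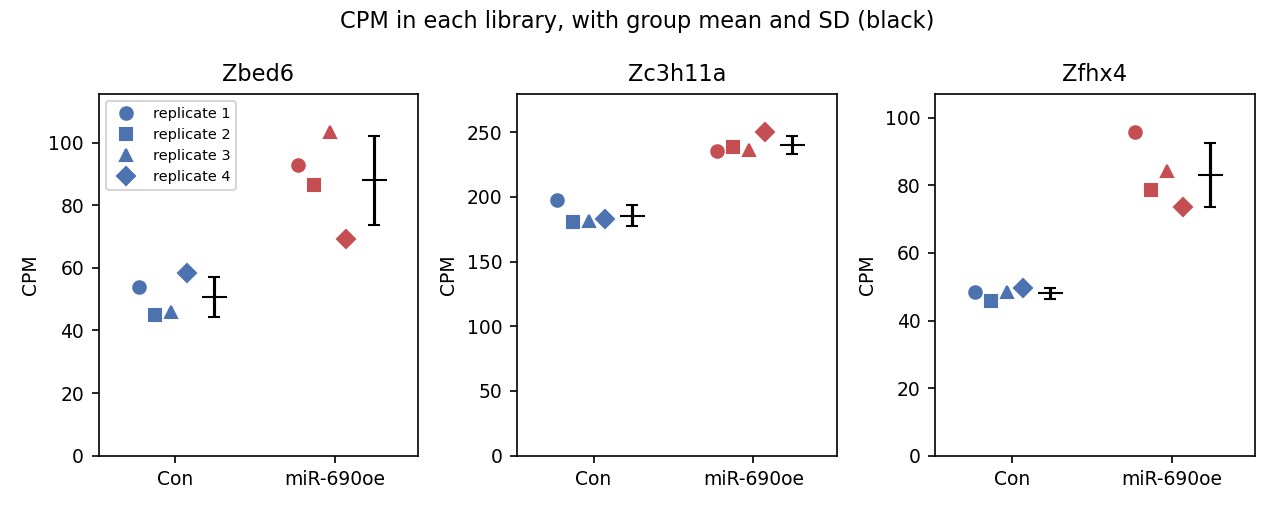
CPM (y axis, from 0) of Zbed6, Zc3h11a and Zfhx4 in the 4 Con and the 4 miR-690oe libraries (x axis), 1 point per library with the replicate number as its shape, and the group mean ± SD in black. For each gene every miR-690oe library lies above every Con library, and miR-690oe replicate 4 is the lowest of its group for Zbed6 and Zfhx4 but the highest for Zc3h11a.

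Levels of different genes were compared per kb of the longest coding transcript. In Con, Zc3h11a stood at 42.2 ± 1.82 CPM per kb, Zbed6 at 10.1 ± 1.28 and Zfhx4 at 3.47 ± 0.118 (SD, n = 4 each). The order was the same in every library, and the ranges of neighbours in it did not overlap in either group. In miR-690oe the levels were 54.6 ± 1.54, 17.6 ± 2.86 and 5.98 ± 0.688 CPM per kb. Among the genes tested, the Con level per kb of Zc3h11a was at percentile 80.4, that of Zbed6 at 40.4 and that of Zfhx4 at 14.5.

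Set against its host, Zbed6 was higher in most miR-690oe libraries. The ratio of Zbed6 to Zc3h11a, both in CPM per kb, was 0.239, 0.218, 0.223 and 0.28 in Con replicates 1 to 4. In miR-690oe it was 0.346, 0.318, 0.384 and 0.243. The ratio of miR-690oe replicate 4 lay within the range of the Con libraries, so the groups overlapped in the ratio although they did not in either gene. The log2 ratio of CPM was higher by 0.41 in miR-690oe, against an SD of 0.164 in Con and 0.284 in miR-690oe. With 1 library left out the difference in the fit, also 0.41, ran from 0.32 without miR-690oe replicate 3 to 0.54 without miR-690oe replicate 4. The log2 ratio of Zbed6 to Zfhx4 was 0.07 in Con and 0.08 in miR-690oe, with SDs of 0.143 and 0.176, and so differed by less than the spread between libraries.

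Listed coding genes that lie whole within an intron of another listed coding gene give a view of how inner and host genes compared. There were 26 such pairs, that of Zbed6 and Zc3h11a included, and 8 of them shared a strand. The log2 fold change of the inner gene minus that of the host had a median of -0.06 over the 26 pairs and ran from -0.51 to 0.55. The pair of Zbed6 and Zc3h11a, at 0.41, held place 2 from the highest. In 4 same-strand pairs, Zbed6 again included, the inner gene had 1 exon. In the others the difference was 0.09 for Galnt4 in Poc1b, 0.06 for Kti12 in Txndc12 and -0.09 for Mcts2 in H13. After removal of the length and GC trend these became -0.07, 0.09 and 0.18, against 0.35 for Zbed6. This set of pairs was looked up after the values of Zbed6 were known and carries no test.

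Fold changes in this comparison followed transcript length, and the 3 genes are long. The tested genes were put in 10 groups of nearly equal size by the length of the longest coding transcript. The median log2 fold change went from -0.20 in the shortest (174 to 1263 nt) to 0.33 in the longest (6590 to 123179 nt). The slope of log2 CPM per doubling of length, taken against the mean of all libraries, was -0.097 to -0.065 in the Con libraries and 0.027 to 0.129 in the miR-690oe libraries, with miR-690oe replicate 4 the lowest of its group and replicate 1 the highest. The Zfhx4 transcript is longer than that of 99.6% of genes, and its miR-690oe values were highest in replicate 1 and lowest in replicate 4. The part of length in the members' differences was not tested on its own.

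Zbed6, at 5007 nt, and Zc3h11a, at 4396 nt, fall in length group 8, where the median log2 fold change was 0.14. Zbed6 lay 0.65 above that median, at place 2 of 1058 genes, and Zc3h11a 0.24 above it, at place 49. Zfhx4 lay 0.45 above the median of length group 10, at place 4 of 1062 genes, or place 13 with the length and GC trend removed. Zbed6 and Zfhx4 were picked as among the most raised genes, so nothing is read from their high places. When a spline trend over length and GC content was removed in each library, the log2 fold changes became 0.58 ± 0.09 for Zbed6, 0.33 ± 0.04 for Zfhx4 and 0.23 ± 0.04 for Zc3h11a (SE). Zbed6 kept most of its difference, and Zfhx4 lost more of it than it kept. The ratio of Zbed6 to Zc3h11a, whose lengths are close, went from 0.41 to 0.35.

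**Figure D3:**
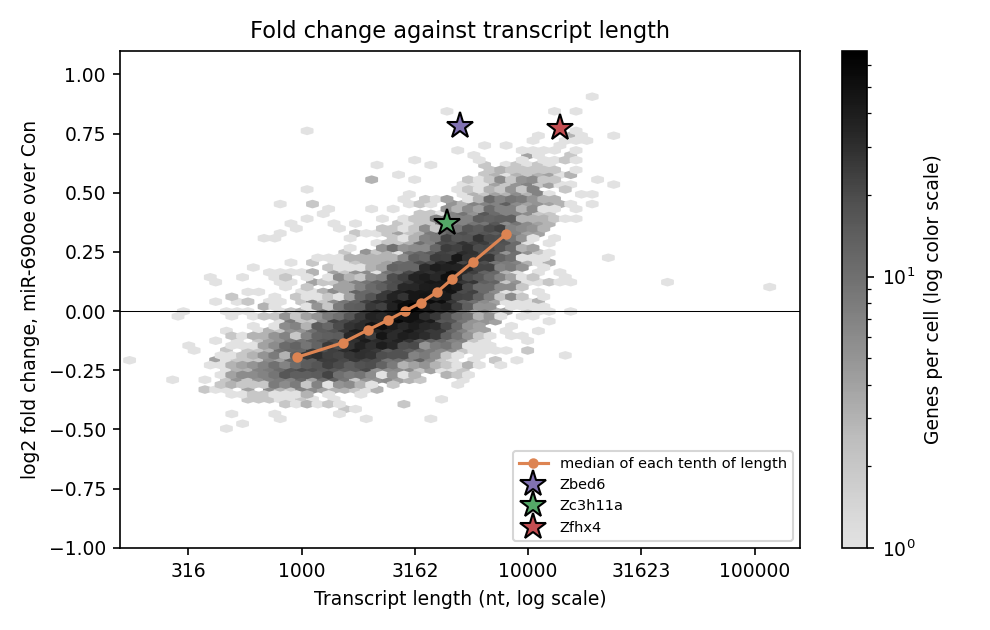
Log2 fold change of miR-690oe over Con (y axis) against transcript length in nt (x axis, log scale) for 10613 genes, shaded by the number of genes, with the median of each length group in orange and the 3 genes as stars. The medians climb from -0.20 to 0.33 with length, and Zbed6 at 0.78 and Zfhx4 at 0.77 lie above the medians of their length groups.

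The 3 genes also differed in how they varied among libraries of 1 group. The choice of genes did not use this spread directly, but picking the largest differences favours genes that vary more. The SD of log2(CPM + 0.5) of Zbed6 was 0.18 in Con and 0.24 in miR-690oe, a wider spread than in 96% and 98.1% of genes, and the median gene had 0.064 and 0.089. Zfhx4 had 0.05 in Con and 0.16 in miR-690oe. Zc3h11a had 0.06 and 0.04, so the inner gene varied more than its host in both groups.

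Deviations from the group mean were compared over the 8 libraries. Zbed6 and Zfhx4 went together with a Pearson r of 0.68, while Zbed6 and Zc3h11a had -0.21 and Zc3h11a and Zfhx4 -0.37. The negative values joined opposite signs: Zbed6 and Zc3h11a had 0.43 in Con and -0.95 in miR-690oe, and Zc3h11a and Zfhx4 had 0.24 and -0.81. These are descriptions over 8 libraries, in which all genes share the depth and scaling of a library. miR-690oe replicate 4, the library lowest in Zbed6 and Zfhx4 within its group, weighed on them: without it the values were 0.38, 0.32 and -0.02. The value for Zbed6 and Zfhx4 was 0.44 with the length and GC trend removed. That for Zc3h11a and Zfhx4 was then -0.58, and it was -0.73 without Con replicate 1, where that for Zbed6 and Zc3h11a was -0.69.

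Among 10169 other genes with a mean of at least 5 CPM, the deviations of Zbed6 were most like those of Gpatch2l (r = 0.99), Myo9a (0.99), Cers6 (0.98), Adal (0.98) and Cpne3 (0.97). Those of Zfhx4 were most like those of Zzef1 (r = 0.99), Helz (0.99), Lrch2 (0.98), Abhd2 (0.98) and Glg1 (0.98). Those of Zc3h11a were most like those of Kptn (r = 0.97), Gramd4 (0.94), Slc29a1 (0.94), Enox1 (0.94) and Hpcal1 (0.94). Each r is among the highest of 10169 over 8 libraries, so a search this wide returns high values. How high they would be by chance was not tested. Neither list of 5 for Zbed6 or Zfhx4 held a gene of the other list, and nothing is read from that. Likeness within groups did not go with the difference between them in every case: Gpatch2l had a log2 fold change of 0.11 and Adal 0.04, against 0.78 for Zbed6.

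**Figure D4:**
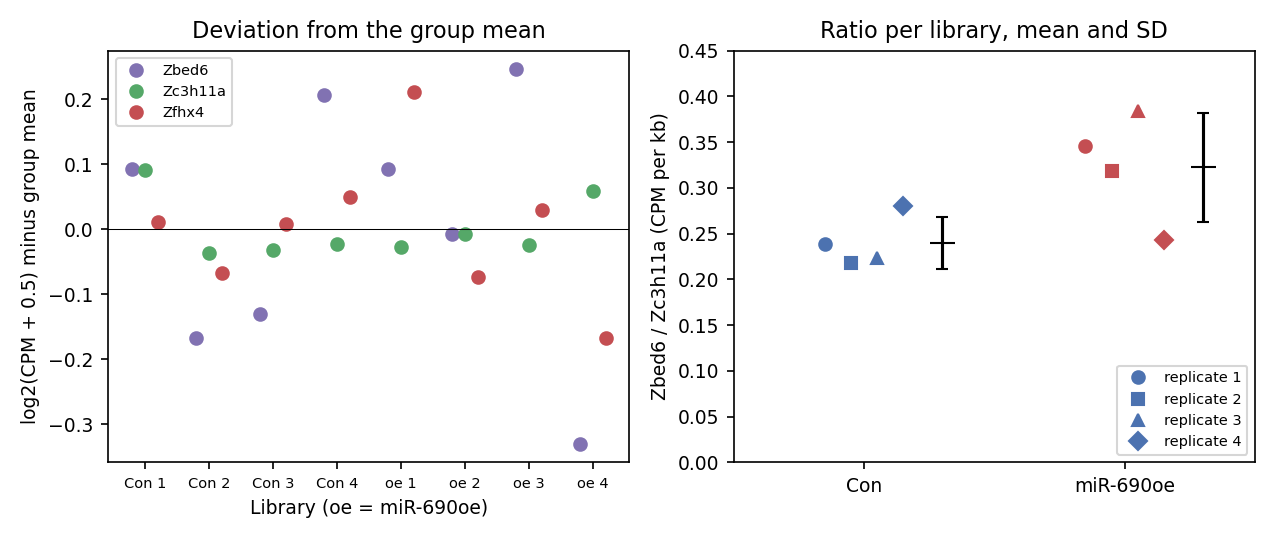
Left, log2(CPM + 0.5) minus the group mean (y axis) of Zbed6, Zc3h11a and Zfhx4, set side by side in each library (x axis); right, the ratio of Zbed6 to Zc3h11a in CPM per kb (y axis, from 0) by group, 1 point per library with the mean ± SD in black. Zbed6 is spread more widely than Zc3h11a in both groups, and the ratio of miR-690oe replicate 4, at 0.243, lies among the Con libraries.

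Related genes that were not used in the choice were tested across the whole table with limma at an adjusted p under 0.05. The lists of these related genes were, however, drawn up with earlier results of these data known. The p-values and counts of the lists may carry that selection and are not an independent test. Of 10658 genes, 43.4% passed, 26% higher and 17.4% lower in miR-690oe, with a median log2 fold change of 0.02 over all genes. After removal of that trend 16.4% passed, 7.36% higher and 9.05% lower.

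Zinc finger homeobox genes, the class to which Zfhx4 belongs, were mostly higher. Of 9 measured genes 7 rose and 0 fell, with a median log2 fold change of 0.22. Zeb2, a repressor that drives the change of epithelial to mesenchymal cells, ran from 121.25 to 144.13 CPM in Con and from 152.7 to 195.47 CPM in miR-690oe, a log2 fold change of 0.38 ± 0.07 (SE, limma adjusted p = 0.000408). Tshz1, a teashirt family repressor, rose 1.27-fold (limma adjusted p = 0.00101), and its relative Tshz3 rose by 0.33 on the log2 scale (limma adjusted p = 0.00336). Adnp2, a relative of the chromatin factor gene Adnp, rose 1.18-fold (limma adjusted p = 0.00213). Once the length and GC trend was taken out, none of the 7 was called higher, Zhx3, named after its values were seen, was called lower, and Zeb2 had -0.002 (limma adjusted p = 0.986). Tshz1, Tshz3 and Adnp2 then missed the threshold (limma adjusted p = 0.0562, 0.139 and 0.188).

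The BED domain, from which Zbed6 takes its name, is a DNA-binding zinc finger that came from transposases. Of 3 measured BED genes 0 passed the limma test, and 0 had an unadjusted p under 0.05. Zbed3, an Axin-interacting protein gene, stood at 26.5 ± 2.28 CPM in Con and 28.7 ± 1.54 CPM in miR-690oe, a difference of 0.11 ± 0.07 (SE, log2, limma adjusted p = 0.17). Zbed5 had -0.04 ± 0.11 (limma adjusted p = 0.816) and Gtf2ird2 -0.12 ± 0.07 (0.212). Zbed3 was called higher in the fit without the length and GC trend (limma adjusted p = 0.0296), but not with a replicate block as well (0.0684). Here and below, that block matches libraries by replicate number, although the numbers did not pair the libraries, as described further on. A call lost with it is therefore not read as an effect of pairing or batch. Its difference of 0.11 compares with 0.78 for Zbed6.

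Genes with names that begin with Zc3h, like that of Zc3h11a, rose more often than they fell. They are called CCCH genes further on, since most carry CCCH zinc fingers, which mostly bind RNA. Of 15 measured genes 10 rose and 1 fell, with a median log2 fold change of 0.17. The 1 that fell was Zc3hc1 (log2 fold change -0.18, limma adjusted p = 0.00689), whose zinc finger is of the C3HC type. Without the length and GC trend 6 genes were higher and 0 lower. Zc3hav1l, a relative of the antiviral protein ZAP, rose 1.38-fold (limma adjusted p = 6.88e-05). Zc3h6 went from 21.2 ± 1.32 to 28.4 ± 1.37 CPM, or 1.33-fold (limma adjusted p = 9.45e-05). Zc3h13, a subunit of the complex that methylates adenosines of mRNA, rose 1.30-fold (limma adjusted p = 0.000128), and Zc3h12c, of the regnase family of RNA-cleaving proteins, rose 1.35-fold (0.000181). The call of Zc3h12c was lost with the trend removed (limma adjusted p = 0.121). Zc3hav1l, Zc3h6 and Zc3h13 kept theirs at log2 fold changes of 0.19, 0.22 and 0.17, close to the 0.23 of Zc3h11a in that fit. With a replicate block as well, Zc3h6 kept its call (limma adjusted p = 0.0237). Zc3hav1l and Zc3h13 then missed the threshold (limma adjusted p = 0.0577 and 0.0631).

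Genes of the TREX complex and of the export receptor it hands mRNA to were called in both directions. Of 16 measured genes 3 rose and 2 fell, where 26% and 17.4% of all genes tested did, so nothing is read from the counts. The median log2 fold change was -0.06. Thoc2, the scaffold of the THO core, rose 1.39-fold, from 80.0 ± 3.96 to 111.8 ± 7.18 CPM (limma adjusted p = 8.27e-06). Nxf1, the mRNA export receptor, rose 1.15-fold (limma adjusted p = 0.00249). Thoc1, of the THO core, rose 1.11-fold (limma adjusted p = 0.0387). The call was lost without Con replicate 1 (0.118) or 4 (0.12) and without miR-690oe replicate 2 (0.0856) or 4 (0.105). Nxt1, the cofactor of Nxf1, fell to 0.901 of its Con level (limma adjusted p = 0.0336). That call was lost without Con replicate 2 (0.0842), 3 (0.0973) or 4 (0.0632) and without miR-690oe replicate 1 (0.0832), 2 (0.0521) or 3 (0.0501). Without the length and GC trend 2 were higher and 1 lower, with Thoc1 at -0.002 and Nxt1 at 0.03 (limma adjusted p = 0.987 and 0.671). The count of 2 lower genes was 0 without Con replicate 3 or miR-690oe replicate 1 or 2, 1 without Con replicate 1 or 2 or miR-690oe replicate 3, and 4 without miR-690oe replicate 4. It was 4 with median-of-ratios scaling and 5 after quantile normalization, and Thoc1 missed the threshold under both (limma adjusted p = 0.069 and 0.157). Thoc1 also missed it with TMM scaling of the libraries and with no variance trend (limma adjusted p = 0.0586 and 0.06).

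Igf2, the gene that ZBED6 represses, was named after its values were seen. It stood at 209.11, 206.46, 209.45 and 217.82 CPM in Con and at 225.42, 218.48, 212.86 and 207.65 CPM in miR-690oe, replicates 1 to 4. The groups overlapped, with a log2 fold change of 0.04 ± 0.04 (SE, limma adjusted p = 0.511). Of 12 measured genes around IGF2, its receptors and its binding proteins, 5 rose and 2 fell, with a median log2 fold change of 0.09. Igf1r, the signalling receptor for IGF1 and IGF2, rose 1.45-fold (limma adjusted p = 9.98e-06). Igf2r, which clears IGF2, went from 164.7 ± 13.5 to 235.7 ± 26.8 CPM, or 1.43-fold (limma adjusted p = 4.25e-05). The mRNA-binding protein genes Igf2bp1 and Igf2bp2 rose 1.16-fold and 1.11-fold (limma adjusted p = 0.00199 and 0.0108). Without the length and GC trend 2 were higher and 1 lower. Igf1r and Igf2r passed that test (limma adjusted p = 0.0343 and 0.0132). Igf2bp1 had a log2 fold change of -0.07 and Igf2bp2 of 0.10 in it (limma adjusted p = 0.324 and 0.0909). With a replicate block as well, Igf1r missed the threshold (limma adjusted p = 0.0801) and Igf2r passed it (0.00818). The count of 2 lower genes was 1 without Con replicate 1, 2 or 3.

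Of 6 measured genes reported elsewhere as partners or targets of ZFHX proteins, 3 rose and 1 fell, with a median log2 fold change of 0.13. Runx2, a transcription factor of bone formation, was low but rose the most. It stood at 7.15 ± 0.886 CPM in Con and 11.9 ± 0.822 CPM in miR-690oe, 1.63-fold more (limma adjusted p = 2.15e-05). It kept its call without the length and GC trend (log2 fold change 0.48, limma adjusted p = 0.00136). Chd4, a nucleosome remodeller bound by ZFHX4 in human glioblastoma cells, rose 1.15-fold (limma adjusted p = 0.00265) and had -0.01 with the trend removed (0.898). Pdgfrb, a growth factor receptor gene of mesenchymal cells, rose 1.13-fold (limma adjusted p = 0.0228). This call was lost without Con replicate 2 (0.0815), without miR-690oe replicate 1 (0.064), after quantile normalization (0.0573), with no variance trend (0.0514) and with the trend removed (0.575). Cdkn1a, which encodes the cell cycle inhibitor p21, fell to 0.914 of Con (limma adjusted p = 0.0141). It missed the threshold without Con replicate 2 (0.0598) and without the trend (0.433). Without that library the count of lower genes was 0.

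**Figure D5:**
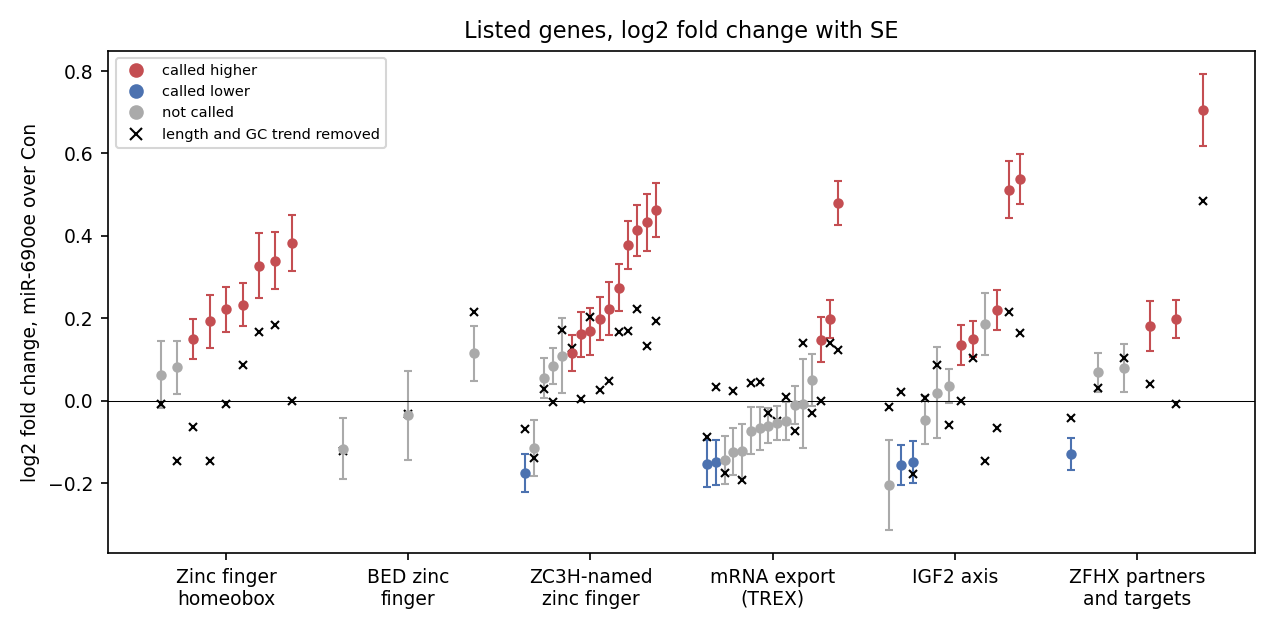
Log2 fold change of miR-690oe over Con with its SE (y axis) for every measured gene of the 6 lists (x axis), colored by the limma call, and the value after removal of the length and GC trend as a cross. Runx2 is the highest at 0.71, and most crosses of the zinc finger homeobox list lie near or below 0.

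The libraries carried the defining genes of fat cells. In Con, Fabp4, a fatty acid carrier, stood at 6573 ± 333 CPM, the adipokine Adipoq at 779.0 ± 61.7, Pparg at 307.9 ± 12.9 and Cebpa at 232.6 ± 13.9 (SD, n = 4 each). Of 15 measured adipocyte markers 1 rose and 2 fell, and their summed level was 13612 to 15185 CPM in Con and 12017 to 15577 CPM in miR-690oe. Of 11 preadipocyte and fibroblast markers 2 rose and 2 fell, with a median log2 fold change of 0.08. Their sums were 13273 to 15156 CPM in Con and 12483 to 16327 CPM in miR-690oe. Of 6 macrophage markers 3 were measured, not including Adgre1, Csf1r and Ptprc. Of these 2 fell, and they summed to 24.1 to 27.9 CPM in Con and 21.4 to 24.1 CPM in miR-690oe. The 1 measured marker of endothelial or blood cells, Egfl7, ran from 3.14 to 3.76 CPM in Con. The 1 of skeletal muscle, Des, stood at 24.8 ± 1.28 CPM in Con and fell to 0.833 of that level (limma adjusted p = 0.00398). Without the length and GC trend 0 adipocyte markers were called higher and 0 lower. The counts were 0 and 1 for preadipocyte and fibroblast markers and 0 and 0 for macrophage markers. The part of these cell types in the differences of the 3 genes was not tested.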

How the data were processed

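Per the submitters' processing notes, Trimmomatic 0.38, edgeR 3.20.9 and mm10 were used, with no role given. Aligner, counter and strandedness are not stated there. The deposited table is named as RPKM, but each of its 8 library columns sums to 1000000, so the values deposited by the authors were taken as CPM. A search for 1 step per column made every value a whole multiple within 0.1 read, which gave the depth. Another test of the low values did not find whole reads, so depths are estimates and no count model was fitted. The authors' deposited table also holds per gene an LR score (a likelihood ratio), p-value, false discovery rate, average log2 CPM and log2 fold change, of which the last alone was used. The authors' group values were not used.

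Genes with at least 0.5 CPM in at least 4 libraries were kept (10658 of 10663). The log2(CPM + 0.5) values went into limma 3.58.1 under R 4.3.3 (lmFit, eBayes with a variance trend, two-sided), adjusted by Benjamini-Hochberg over all genes tested. Low genes have understated fold changes on this scale. Annotation came from GENCODE M21, matched for 99.6% of entries with Python 3.11.15. Of the 3 genes, 2 had a RefSeq promoter window. The longest coding transcript need not be the one in use. Splines with 5 degrees of freedom each removed the length and GC trend in 10613 genes.

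The 3 genes and the lists were chosen with earlier results of these data known. Named were the 4 genes of each list with the lowest adjusted p (all of the BED list). Cell type markers named were Adipoq, Fabp4, Pparg and Cebpa. Igf2, Zhx3, Zc3hc1, Egfl7 and Des were named after their values were seen, as were the nested pairs and promoter motifs. For each of the 3 genes, the 5 most alike genes by r were named. Alternatives covered pseudocount, filter, scaling, variance model, replicate block, length and GC trend, and leaving out each library.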

Additional observations from a re-analysis of the deposited data

Results flagged for a closer look

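Among 54 groups of 4 values, of the 3 genes, of the genes named from the lists and of the ratio of Zbed6 to Zc3h11a, 4 held a library far from the other 3 by Dixon's test, where chance gives about 1 in 20. Zc3h11a stood at 198 CPM in Con replicate 1, against 181 to 183 CPM in the other Con libraries, and the log2 fold change without that library was 0.40. Igf2r was also high in Con replicate 1, at 185 CPM against 156 to 160. Gtf2ird2 was low in miR-690oe replicate 3, at 14.6 CPM against 17.8 to 18.0. Runx2 was high in miR-690oe replicate 1, at 13.2 CPM against 11.4 to 11.7.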

How the results depend on the processing

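The log2 fold changes of Zbed6, Zfhx4 and Zc3h11a kept their direction under every alternative run. With 1 library left out they ran from 0.70 to 0.89, 0.70 to 0.83 and 0.35 to 0.40. Removal of the length and GC trend, with or without the replicate block, moved Zfhx4 to 0.33, Zc3h11a to 0.23 and the median of the longest transcripts (length group 10) to 0.013. Without the block it moved Con levels to 4.05 CPM per kb for Zfhx4 and 44.4 for Zc3h11a. The cause was not tested. Over all genes it left 781 higher and 961 lower, and 531 and 682 with the replicate block. Quantile normalization gave 2207 higher and 2546 lower (46.4% of calls higher, against 59.9%). With 1 library left out the counts were 2351 to 2798 higher and 1405 to 2013 lower.

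With the trend removed the calls were 0 higher and 1 lower for zinc finger homeobox genes, 1 higher for BED genes, 6 and 0 for CCCH genes, 1 lower for TREX genes, 2 and 1 for IGF2 genes and 1 and 0 for ZFHX partners. With the replicate block as well, they were 0 higher for homeobox genes, 0 for BED genes, 2 and 0 for CCCH genes, 1 and 0 for TREX genes, 1 and 1 for IGF2 genes and 1 and 0 for ZFHX partners. TREX genes had 4 lower with median-of-ratios scaling, 5 with quantile normalization, 1 with no variance trend, 0 with the replicate block, and 0 to 4 with 1 library left out. CCCH genes had 2 lower after quantile normalization, IGF2 genes 1 with no variance trend and 1 to 2 with 1 library left out, and ZFHX partners 0 to 1. With the trend removed, with or without the block, Zeb2 had -0.002, Nxt1 0.033, Thoc1 -0.002, Igf2bp1 -0.066 and Chd4 -0.009. With 1 library left out the r of Zbed6 and Zc3h11a ran from -0.69 to 0.32. That of Zbed6 and Zfhx4 ran from 0.38 to 0.93, and that of Zc3h11a and Zfhx4 from -0.73 to -0.02.

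Groups share replicate numbers, but the numbers did not pair the libraries: deviations of same-numbered libraries correlated at -0.33 to 0.31 over genes, and 2 of 8 libraries were most like their own number. The replicate block alone gave 2567 higher and 1642 lower genes, and Nxt1 and Thoc1 missed the threshold in it (limma adjusted p = 0.058 and 0.0521). A test on read counts was not run, since whole reads were not recovered by every test.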
